A study of Homo sapiens with 6 samples.

Results

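The genes described here are 10 members of the NF-kB response in SW620 cells: the chemokine genes CXCL1, CXCL2, CXCL3, CXCL8 and CCL20, the feedback inhibitors NFKBIA and TNFAIP3, the ubiquitin ligase gene BIRC3, and TNFAIP2 and ICAM1. They were taken by symbol from a table of 19672 genes, where all 10 were found. All 10 also passed the low-count filter, which kept 13299 genes for testing. SW620 is an established epithelial line from a lymph node metastasis of a human colorectal cancer, and DKC1 encodes dyskerin, the pseudouridine synthase of H/ACA ribonucleoproteins. The groups were DKC1 knockdown cells called C3, DKC1 knockdown cells called C6, and cells with a scrambled shRNA, with 2 libraries each. All 3 groups carried a lentiviral pLV vector stably, were kept under puromycin and had no other treatment, and all libraries bore the same batch label. The design names the constructs shDKC1-2 and shDKC1-3. Neither the construct in C3, nor the one in C6, nor whether a line is a clone could be read from the labels. Titles name biological replicates, without stating separate cultures. The p-values therefore measure the spread between these libraries, which may be technical, and not the spread between independently made lines.

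NF-kB is a family of dimeric transcription factors that inhibitor proteins hold in the cytoplasm. Signals from receptors such as those of TNF, IL-1 or bacterial products activate the IKK kinase, the inhibitors are degraded, and the dimers bind κB sites in promoters. The targets include NFKBIA and TNFAIP3, which then shut the pathway down, and in intestinal epithelium they include chemokines that draw leukocytes: the CXC chemokines act on CXCR2 of neutrophils and CCL20 on CCR6 of lymphocytes and dendritic cells.

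Total counts ranged from 26077966 to 31021000 per library, so that 3 counts stood for at most 0.114 CPM (read counts scaled to a common library size). This floor reflects counting error alone. DKC1 was measured at 144 and 149 CPM in C3 and 70.3 and 67.1 CPM in C6, against 320 and 315 CPM in scramble. The genotype field of C3 replicate 1 says control, against its own title; it was kept in C3, and its DKC1 level lay beside that of C3 replicate 2. Of 11 epithelial and intestinal markers 10 were tested and CDX1 had 0 counts in every library, and their summed level was 6888 to 7085 CPM in C3, 8957 to 9065 in C6 and 8494 to 9139 in scramble. KRT8 and KRT18 were at 1714 CPM or more in every library, and KRT20, CDX2, LGALS4 and TSPAN8 at or under 4.90 CPM. CDH1 (E-cadherin) stood at 60.3 and 55.9 CPM in C3 and 175 and 190.2 CPM in C6, against 220.4 and 230.3 CPM in scramble. VIL1 (villin) stood at 376 and 364 CPM in C3 and 136 and 140.0 CPM in C6, against 284 and 300.2 CPM in scramble. KRT19 went the other way in C6, at 1963 and 1934 CPM, against 1203 and 1097 CPM in scramble. In C3 it stood at 953 and 961 CPM. KRT20 and CDX2 also lay above scramble in C6 and below it in C3. EPCAM lay below scramble in both lines, at 307 and 321 CPM in C3 and 303 and 273 CPM in C6. Its level in scramble was 428 and 389 CPM. The part of these marker differences in the results below was not tested. Of 13 leukocyte markers 9 had 0 counts in every library, among them PTPRC, CSF3R and S100A8. The summed level of the leukocyte list was 12.6 to 13.0 CPM in C3, 35.2 to 42.6 in C6 and 18.4 to 19.4 in scramble. Most of it was CD68, a lysosomal protein also found outside leukocytes, at 33.0 and 40.0 CPM in C6; its part in the results below was not tested. In bulk RNA a change in the share of expressing cells and a change in RNA per cell cannot be told apart.

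The stretches of promoter before each start site are shown because κB sites there are the known route by which NF-kB reaches these genes. A further reason is that CXCL1 and CXCL3, with similar promoters, had different calls in C3. Their changes were not tested against each other. The stretches were taken from the RefSeq promoters of GRCh38.p14, in which all 10 genes were matched. They end at the base before the start given there, which for TNFAIP3 and TNFAIP2 lies inside the span of the gene. Capitals mark matches, on either strand, to the κB consensus of 10 letters or to the shorter motif GGNNNTTCC of 9 letters. Most matches to the consensus contain one to the shorter motif. The shorter motif was chosen with the published sites of CXCL8 and ICAM1 in mind, which the consensus misses.
CXCL1 chr4:73869273-73869392 plus strand: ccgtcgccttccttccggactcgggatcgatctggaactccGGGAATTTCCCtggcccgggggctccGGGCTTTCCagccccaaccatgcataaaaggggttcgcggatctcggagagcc
CXCL2 chr4:74099196-74099315 minus strand: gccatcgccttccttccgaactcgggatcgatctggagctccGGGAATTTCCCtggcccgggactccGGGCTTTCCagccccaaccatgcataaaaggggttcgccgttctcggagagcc
CXCL3 chr4:74038690-74038809 minus strand: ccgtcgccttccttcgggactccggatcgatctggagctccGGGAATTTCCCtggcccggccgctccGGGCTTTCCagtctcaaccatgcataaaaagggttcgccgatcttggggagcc
CXCL8 chr4:73740449-73740568 plus strand: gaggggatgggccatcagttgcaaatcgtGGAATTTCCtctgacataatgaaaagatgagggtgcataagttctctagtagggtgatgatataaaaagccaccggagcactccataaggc
CCL20 chr2:227813722-227813841 plus strand: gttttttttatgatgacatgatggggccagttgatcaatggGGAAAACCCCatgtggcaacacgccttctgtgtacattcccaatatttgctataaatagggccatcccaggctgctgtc
NFKBIA chr14:35404750-35404869 minus strand: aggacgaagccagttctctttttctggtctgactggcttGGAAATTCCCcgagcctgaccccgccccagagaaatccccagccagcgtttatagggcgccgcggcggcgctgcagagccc
TNFAIP3 chr6:137867139-137867258 plus strand: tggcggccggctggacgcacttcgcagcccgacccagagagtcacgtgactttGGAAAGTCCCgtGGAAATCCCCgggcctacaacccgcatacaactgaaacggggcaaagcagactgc
TNFAIP2 chr14:103123341-103123460 plus strand: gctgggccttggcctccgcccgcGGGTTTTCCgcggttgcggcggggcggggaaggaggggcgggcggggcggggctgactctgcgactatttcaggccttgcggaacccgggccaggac
BIRC3 chr11:102317234-102317483 plus strand: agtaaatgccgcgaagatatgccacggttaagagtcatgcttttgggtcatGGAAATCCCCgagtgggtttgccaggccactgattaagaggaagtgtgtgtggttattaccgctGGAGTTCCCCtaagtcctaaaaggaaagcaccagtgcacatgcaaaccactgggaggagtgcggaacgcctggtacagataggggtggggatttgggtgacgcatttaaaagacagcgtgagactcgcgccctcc
ICAM1 chr19:10270870-10271119 plus strand: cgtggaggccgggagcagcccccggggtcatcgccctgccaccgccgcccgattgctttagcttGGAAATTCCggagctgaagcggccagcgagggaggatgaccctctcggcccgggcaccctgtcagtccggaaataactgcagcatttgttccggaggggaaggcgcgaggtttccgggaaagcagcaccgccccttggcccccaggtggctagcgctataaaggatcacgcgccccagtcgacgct

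Each stretch is 120 bases long, except that BIRC3 and ICAM1 are given with 250 bases because their matches lie further out. In the 250 bases before the start, the shorter motif was found in 10 of the 10 genes and in 17.1% of 35116 promoters, and the κB consensus in 7 of 10 and in 5.21% of promoters. CXCL8, TNFAIP2 and ICAM1 had a match to the shorter motif and none to the consensus. In CXCL1, CXCL2, CXCL3, CXCL8, CCL20 and NFKBIA a match began between 78 and 91 bases before the start. The AP-1 motif TGANTCA was present in CXCL8 alone of the 10, 137 bases before its start, and in 6.57% of all promoters on both strands. The TATA motif TATAAA, searched on the sense strand, was present in CXCL8, CCL20 and ICAM1 and in 6.8% of promoters. The 250-base promoters of CXCL1 and CXCL3 were identical at 81.4% of aligned positions, those of CXCL2 and CXCL3 at 73.4%, and those of CXCL1 and CXCL2 at 70.1%, against 43.9% to 47.9% between CXCL8 and these 3 genes. A match is a run of letters and not a shown binding site, and other positions outside these windows were not searched.

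**Figure D1:**
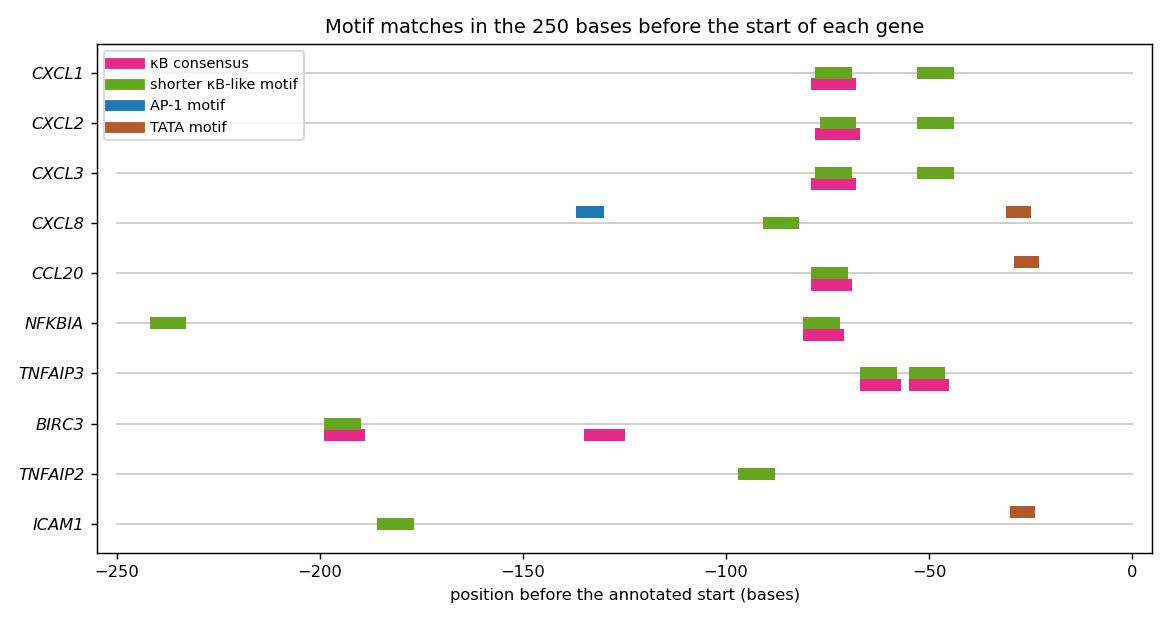
Position of motif matches in the 250 bases before the annotated start of each gene, in bases from the start (x axis), with a row for each gene and a colour for each motif. All 10 rows carry the shorter κB-like motif, and 7 of 10 carry the κB consensus.

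CXCL8, the classical neutrophil chemokine, was higher in both knockdown lines, and CXCL3, a related CXCR2 ligand, was too, but in the opposite order of size. CXCL8 (chromosome 4, 73740569 to 73743716) was measured at 15.8 and 17.4 CPM in C3 and 38.5 and 34.2 CPM in C6, against 11.1 and 10.2 CPM in scramble. No knockdown library overlapped scramble, and C6 lay above C3. It rose 1.56-fold in C3 (log2 fold change 0.65 ± 0.11, SE, adjusted p = 0.000629 in the quasi-likelihood test of edgeR over all genes tested) and 3.42-fold in C6 (1.77 ± 0.11, adjusted p = 7.2e-09). CXCL3 (chromosome 4, 74036589 to 74038689) stood at 15.6 and 15.4 CPM in C3 and 10.9 and 10.7 CPM in C6, against 5.28 and 6.18 CPM in scramble. Here C3 was the highest group and again no library overlapped scramble. CXCL3 rose 2.70-fold in C3 (1.43 ± 0.13, adjusted p = 1.5e-06 by the same edgeR test) and 1.89-fold in C6 (0.92 ± 0.14, adjusted p = 5.7e-05). Both genes were called in both lines in each of 13 alternative analyses.

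CXCL1 and CXCL2, the closest relatives of CXCL3, were scarce. CXCL1 (chromosome 4, 73869393 to 73871308) had 23 and 14 counts in C3 and 45 and 71 counts in C6, against 21 and 17 counts in scramble, which is 0.742 and 0.498 CPM in C3, 1.71 and 2.55 CPM in C6 and 0.78 and 0.633 CPM in scramble. The C3 libraries overlapped scramble and the C6 libraries lay above it. CXCL1 rose 3.01-fold in C6 (1.59 ± 0.43, adjusted p = 0.007 in the quasi-likelihood test of edgeR) and stood at a log2 fold change of −0.18 ± 0.47 in C3 (95% interval −1.19 to 0.83, adjusted p = 0.826). The call in C6 was lost without scramble replicate 2 (adjusted p = 0.0651) and without C6 replicate 2 (0.0927). CXCL2 (chromosome 4, 74097040 to 74099195) had 44 and 22 counts in C3 and 44 and 23 counts in C6, against 24 and 21 counts in scramble. In each knockdown line 1 library lay above scramble and the other at its level, in CPM. Its log2 fold change was 0.40 (95% interval −0.63 to 1.44) in C3 and 0.57 (−0.46 to 1.61) in C6, with adjusted p = 0.602 and 0.358 by the same edgeR test. Between the libraries of a knockdown line, CXCL2 had an exact binomial p of 0.0258 in C3 and 0.00674 in C6 (two-sided, not adjusted over members and groups). The precision for CXCL2 may therefore be limited by the spread between libraries as well as by its counts. By the same binomial test BIRC3 (p = 0.000816), CXCL8 (0.0101) and CXCL1 (0.0406) in C6 and ICAM1 in C3 (0.0399) also lay under 0.05. Windows of 75 bases were compared between GENCODE v29 transcripts of the genes described here. Shared windows made up 0.293% of CXCL1, 2.27% of CXCL2 and 2.3% of CXCL3, and none, 0, of CXCL8. Windows shared with transcripts of other genes were not measured. How reads that match several genes were counted is not stated in the labels or files. Part of the counts of CXCL1, CXCL2 and CXCL3 could therefore belong to another gene, by an amount not measured.

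CCL20, the sole known chemokine ligand of CCR6, rose in C6. CCL20 (chromosome 2, 227813842 to 227817556) was measured at 7.49 and 8.57 CPM in C3 and 19.3 and 17.1 CPM in C6, against 6.95 and 5.66 CPM in scramble. The C6 libraries stood far above the others, and the C3 libraries lay just above scramble without overlap. CCL20 was 2.89-fold higher in C6 (1.53 ± 0.14, adjusted p = 5.3e-07 in the quasi-likelihood test of edgeR), and in C3 the log2 fold change was 0.35 ± 0.15 (adjusted p = 0.106). The running median of 51 neighbouring genes at CCL20 was −0.10 in C3 and −0.37 in C6, both on the log2 fold change scale. With that shift removed, CCL20 passed the test in C3 as well (0.45, adjusted p = 0.0423).

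**Figure D2:**
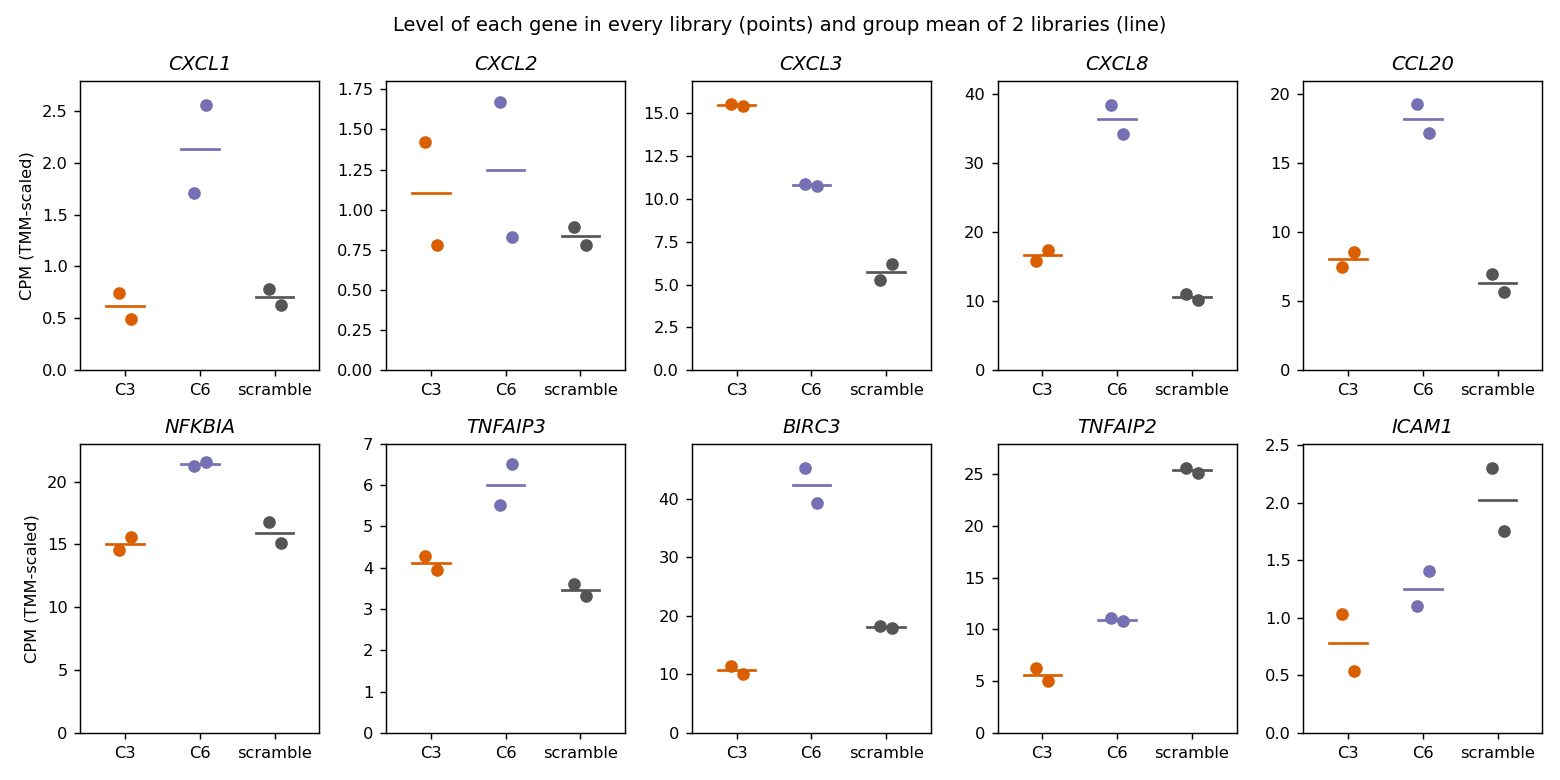
Level of each gene in CPM, scaled by TMM (y axes start at 0 and differ between panels), in every library of C3, C6 and scramble; lines are means of 2 libraries. CXCL8, CCL20 and BIRC3 were highest in C6, CXCL3 in C3, and TNFAIP2 and ICAM1 in scramble.

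The feedback inhibitors NFKBIA and TNFAIP3 rose in C6, and neither was called in C3. NFKBIA encodes the IκB protein that holds NF-kB in the cytoplasm (chromosome 14, 35401513 to 35404749). It was measured at 14.5 and 15.6 CPM in C3 and 21.2 and 21.6 CPM in C6, against 16.8 and 15.1 CPM in scramble. C3 overlapped scramble and C6 lay above both. NFKBIA was 1.34-fold higher in C6 (0.43 ± 0.11, adjusted p = 0.00395 in the quasi-likelihood test of edgeR) and stood at −0.08 ± 0.11 in C3 (adjusted p = 0.636, 95% interval −0.31 to 0.15). TNFAIP3, a ubiquitin-editing enzyme that ends signalling from the TNF receptor (chromosome 6, 137866349 to 137883312), had 4.29 and 3.95 CPM in C3 and 5.51 and 6.51 CPM in C6, against 3.60 and 3.31 CPM in scramble. The groups did not overlap and were ordered C6, C3, scramble from high to low. TNFAIP3 was 1.74-fold higher in C6 (0.80 ± 0.20, adjusted p = 0.00364 by the same edgeR test), while the 0.25 ± 0.20 in C3 did not pass (adjusted p = 0.397). An antisense gene on the other strand overlaps TNFAIP3 in GENCODE v29, and whether counting used strand is not stated in the labels or files.

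BIRC3 changed in opposite directions in the lines. It encodes a ubiquitin ligase of the inhibitor of apoptosis family that acts in TNF receptor signalling and restrains the non-canonical NF-kB pathway (chromosome 11, 102317484 to 102339403). Its level was 11.4 and 10.1 CPM in C3 and 45.3 and 39.4 CPM in C6, against 18.4 and 17.9 CPM in scramble. Both C3 libraries lay below and both C6 libraries above scramble. BIRC3 fell 1.68-fold in C3 (−0.75 ± 0.11, adjusted p = 0.000165 in the quasi-likelihood test of edgeR) and rose 2.33-fold in C6 (1.22 ± 0.10, adjusted p = 1.9e-07), and both calls held in all 13 alternatives. Calls that were lower in C3 and higher in C6 made up 2.62% of all genes tested, and the reverse 2.31%. BIRC2, its paralog, which starts 29.7 kb away, rose in C6 (0.53 ± 0.08, adjusted p = 0.000125 by edgeR) and stood at −0.12 ± 0.09 in C3 (adjusted p = 0.326).

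TNFAIP2 fell in both lines, and ICAM1 fell in C3. TNFAIP2, a TNF-induced protein related to exocyst subunits (chromosome 14, 103121469 to 103137439), was measured at 6.23 and 5.05 CPM in C3 and 11.1 and 10.8 CPM in C6, against 25.6 and 25.2 CPM in scramble. All 4 knockdown libraries lay below scramble, C3 lowest. TNFAIP2 fell 4.49-fold in C3 (−2.17 ± 0.13, adjusted p = 9.9e-09 in the quasi-likelihood test of edgeR) and 2.32-fold in C6 (−1.21 ± 0.12, adjusted p = 8.1e-07), in all 13 alternatives. ICAM1, the adhesion molecule that leukocyte integrins bind (chromosome 19, 10271120 to 10286615), had 32 and 15 counts in C3 and 29 and 39 counts in C6, against 62 and 47 counts in scramble. No knockdown library reached the scramble level in CPM, which was 1.03 and 0.534 in C3, 1.10 and 1.40 in C6 and 2.30 and 1.75 in scramble. ICAM1 fell 2.56-fold in C3 (−1.36 ± 0.42, adjusted p = 0.0262 by the same edgeR test), and its −0.69 ± 0.40 in C6 did not pass (adjusted p = 0.17). The call in C3 was lost with DESeq2 (adjusted p = 0.0539), without either scramble library (0.182 and 0.0685) and without C3 replicate 2 (0.2). A pair of antisense genes overlap ICAM1 in GENCODE v29.

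**Figure D3:**
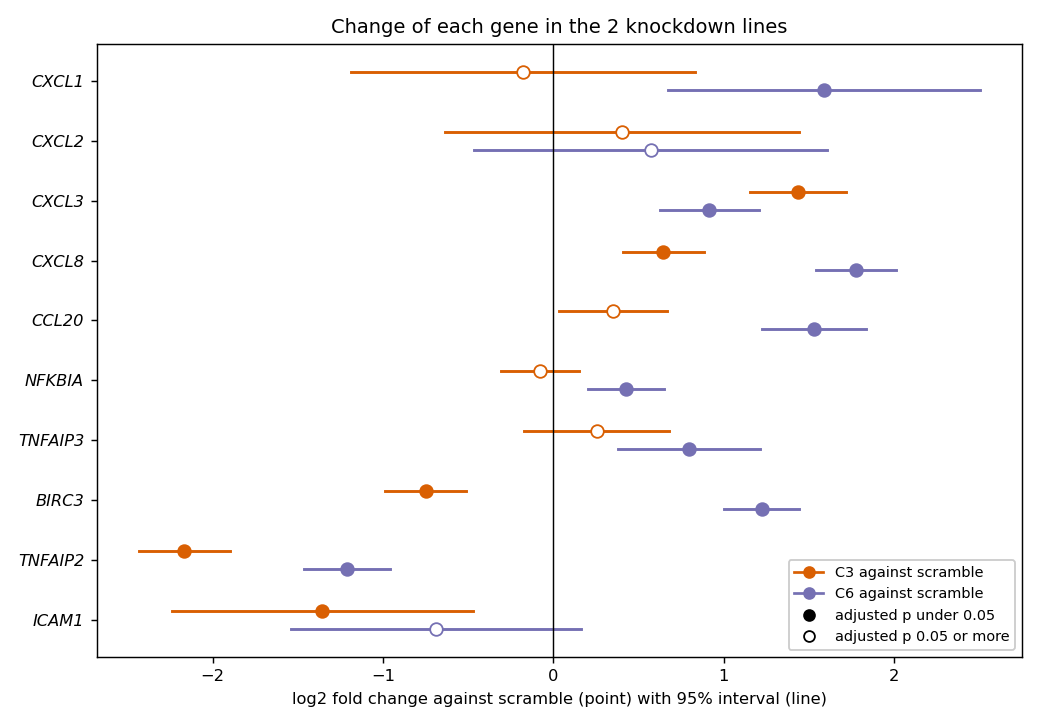
log2 fold change against scramble (x axis) of each gene in C3 and in C6, with the 95% interval of the edgeR fit; filled points have an adjusted p under 0.05. In C6 the intervals of 7 genes lie above 0, from 0.43 for NFKBIA to 1.77 for CXCL8, and in C3 those of BIRC3, TNFAIP2 and ICAM1 lie below it.

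Counted together, 7 of the 10 genes rose and 1 fell in C6, where 23.8% of all genes tested rose and 22.8% fell. In C3 the counts were 2 higher and 3 lower, where 12.4% of all genes rose and 11.9% fell. The median log2 fold change of the 10 genes was 0.09 in C3 and 0.86 in C6, against 0.00134 and −0.01 over all genes tested. CXCL3 and CXCL8 were called higher in both lines (5.44% of all genes were) and TNFAIP2 lower in both (4.59% of all genes were). These comparisons share the scramble libraries. In the mean of both lines CXCL3 (1.17 ± 0.12), CXCL8 (1.21 ± 0.10), CCL20 (0.94 ± 0.13) and TNFAIP3 (0.52 ± 0.17) were higher, and TNFAIP2 (−1.69 ± 0.10) and ICAM1 (−1.02 ± 0.34) lower, so 4 rose and 2 fell, where 16.6% of all genes rose and 16.3% fell. With upper-quartile scaling the share of higher calls among all called genes in that comparison was 37.2%, against 50.5% with TMM, and the members still counted 4 and 2. The mean calls of TNFAIP3 and ICAM1 each held in 8 of 13 alternatives: TNFAIP3 was lost with DESeq2 (adjusted p = 0.107), without either scramble library (0.0854 and 0.175), without C3 replicate 1 (0.0706) and without C6 replicate 2 (0.0731). ICAM1 was lost with DESeq2 (adjusted p = 0.0776), without either scramble library (0.252 and 0.0865), without C3 replicate 2 (0.0899) and without C6 replicate 1 (0.0796). When the 4 knockdown libraries were taken as 1 group, so that the difference between lines counts as spread, none of the members, 0 of 10, passed with edgeR, and CXCL3, CXCL8 and TNFAIP2, 3 in all, had an unadjusted p under 0.05. The smallest adjusted p among the members was that of CXCL3 (0.0886, log2 fold change 1.20). How many of all genes had an unadjusted p under 0.05 in this fit was not counted.

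The lines were also compared directly. C6 exceeded C3 in 7 genes and lay below it in CXCL3 alone, while 25.1% of all genes tested were higher and 24.1% lower. The log2 difference of C6 from C3 was 1.97 ± 0.11 for BIRC3, 1.77 ± 0.43 for CXCL1, 1.18 ± 0.14 for CCL20, 1.13 ± 0.10 for CXCL8, 0.95 ± 0.13 for TNFAIP2, 0.54 ± 0.19 for TNFAIP3 and 0.51 ± 0.11 for NFKBIA, and −0.52 ± 0.12 for CXCL3. Adjusted p-values in the quasi-likelihood test of edgeR ran from 1.5e-09 for BIRC3 to 0.0278 for TNFAIP3. TNFAIP3 was no longer called with DESeq2 (adjusted p = 0.101), without either C3 library (0.069 and 0.132) or without C6 replicate 2 (0.164), and CXCL1 was not called without C6 replicate 2 (0.0567). The differences of CXCL2 (0.17 ± 0.47) and ICAM1 (0.66 ± 0.43) did not pass. DKC1 itself was lower in C6 than in C3 by a log2 difference of −1.10 ± 0.06.

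Levels were compared between genes as CPM per kb of the longest coding transcript in GENCODE v29. In C3 the order was led by CXCL3 at 14.4 ± 0.102 CPM per kb (SD, n = 2), followed by CXCL8 (9.75 ± 0.641), NFKBIA (9.67 ± 0.495) and CCL20 (9.57 ± 0.914), which lay within their SDs of each other. In C6 it was led by CCL20 (21.7 ± 1.77) and CXCL8 (21.3 ± 1.76), also within their SDs, and then NFKBIA (13.7 ± 0.155), CXCL3 (10.05 ± 0.0738) and BIRC3 (8.15 ± 0.808). In scramble NFKBIA led (10.2 ± 0.777), before CCL20 (7.51 ± 1.08), CXCL8 (6.23 ± 0.375), TNFAIP2 (5.42 ± 0.0641) and CXCL3 (5.33 ± 0.596), the last pair within their SDs. CXCL1, CXCL2, TNFAIP3 and ICAM1 stayed at or below 1.94 CPM per kb in every group. All 10 genes together held 0.00785% and 0.00774% of counts in C3 and 0.0153% and 0.0142% in C6, against 0.00934% and 0.00892% in scramble.

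CXCL8, CXCL1, CXCL3 and CXCL2 lie within 356 kb of each other on chromosome 4. Against scramble the called changes inside this stretch were rises, while genes beyond CXCL2 differed in sign. CXCL6, a further neutrophil chemokine between CXCL8 and CXCL1, had 0.968 and 1.35 CPM in C3 and 3.57 and 3.49 CPM in C6, against 2.15 and 1.45 CPM in scramble. It rose in C6 (0.97 ± 0.30, adjusted p = 0.016 in the quasi-likelihood test of edgeR) and stood at −0.64 ± 0.33 in C3 (adjusted p = 0.178), and the call in C6 was lost without scramble replicate 2 (0.136) or either C6 library (0.0666 and 0.0557). MTHFD2L, a mitochondrial folate enzyme that starts 17.5 kb from CXCL2, fell in C6 (−0.49 ± 0.11, adjusted p = 0.00183). EREG, the EGF receptor ligand epiregulin, fell in C3 (−0.57 ± 0.09, adjusted p = 0.000381) and rose in C6 (1.16 ± 0.09, adjusted p = 7.3e-08), the same order of signs as BIRC3. RASSF6, on the other side of CXCL8, rose in both lines (0.40 ± 0.07 in C3 and 0.27 ± 0.07 in C6). PPBP, PF4 and PF4V1 had 0 counts in every library, and CXCL5 had 3 counts in 1 scramble library and 0 in the others. The running median of 51 neighbouring genes at CXCL8 was −0.03 in C3 and −0.01 in C6 (log2 fold change), and removing it left the calls of CXCL8, CXCL1, CXCL3 and CXCL2 as they were.

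**Figure D4:**
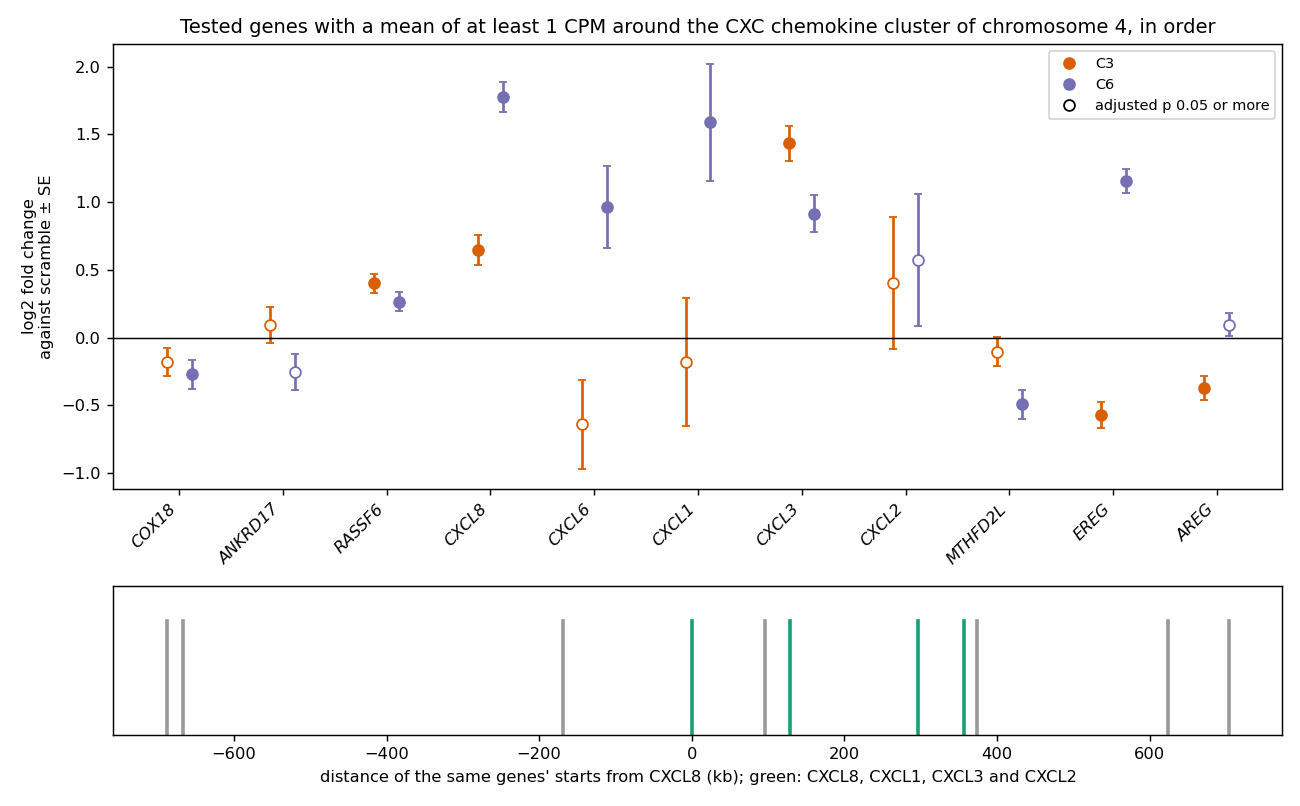
log2 fold change against scramble with its SE (upper panel, y axis) of tested genes around the CXC chemokine cluster of chromosome 4, in C3 and in C6, with filled points for an adjusted p under 0.05; the lower panel gives the distance of their starts from CXCL8 in kb. MTHFD2L (−0.49 in C6) and EREG (−0.57 in C3) differ in sign from CXCL8 in the same line.

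The machinery of the pathway was described from lists put together with earlier results of these data known. Each count is to be read beside the shares over all genes tested, which were 12.4% higher and 11.9% lower in C3 and 23.8% higher and 22.8% lower in C6. At an unadjusted p under 0.05 with edgeR, in either direction, 4779 of 13299 genes passed in C3 and 7096 in C6. DESeq2 called 2608 genes in C3 and 5287 in C6. Of 12 tested genes for NF-kB subunits and their inhibitors, 4 fell (33.3%) and none, 0, rose in C3, while 4 rose (33.3%) and none, 0, fell in C6. At an unadjusted p under 0.05 in the same edgeR test 0 rose in C3 and 1 fell in C6, and with DESeq2 0 rose in C3 and 0 fell in C6. Of the canonical subunits, NFKB1 stood at 0.06 ± 0.08 in C3 and 0.08 ± 0.08 in C6 without a call, and RELA at −0.03 ± 0.06 in C3 and 0.22 ± 0.06 in C6, where it was called (adjusted p = 0.0127 in the quasi-likelihood test of edgeR). NFKB2, RELB and BCL3, which NF-kB is itself known to induce, fell in C3 and rose in C6. NFKB2, a subunit of the non-canonical pathway, had 7.52 and 8.75 CPM in C3 and 17.8 and 18.8 CPM in C6, against 14.3 and 15.6 CPM in scramble, with log2 fold changes of −0.88 ± 0.12 and 0.29 ± 0.12. RELB, its partner, stood at 3.84 and 3.84 CPM in C3 and 9.08 and 10.1 CPM in C6, against 5.28 and 6.44 CPM in scramble (−0.61 ± 0.18 and 0.71 ± 0.16). BCL3, an atypical IκB protein that works in the nucleus, had 0.904 and 0.427 CPM in C3 and 7.37 and 6.94 CPM in C6, against 1.71 and 1.41 CPM in scramble (−1.21 ± 0.34 and 2.19 ± 0.28). For all 3 genes both C3 libraries lay below and both C6 libraries above scramble.

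C6 differed from C3 by a log2 difference of 1.17 ± 0.12 for NFKB2, 1.32 ± 0.17 for RELB and 3.40 ± 0.31 for BCL3 (adjusted p = 1.3e-06, 1.2e-05 and 3.1e-07 in the quasi-likelihood test of edgeR), and these calls held in all 13 alternatives. Against scramble the smaller changes were less stable: the rise of NFKB2 in C6 (adjusted p = 0.0498) held in 3 of 13 alternatives, the fall of RELB in C3 in 8 and the fall of BCL3 in C3 in 11. NFKBIZ, another nuclear IκB protein, fell in C3 (−1.02 ± 0.18, adjusted p = 0.000618) and stood at −0.39 ± 0.17 in C6 (adjusted p = 0.0762).

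**Figure D5:**
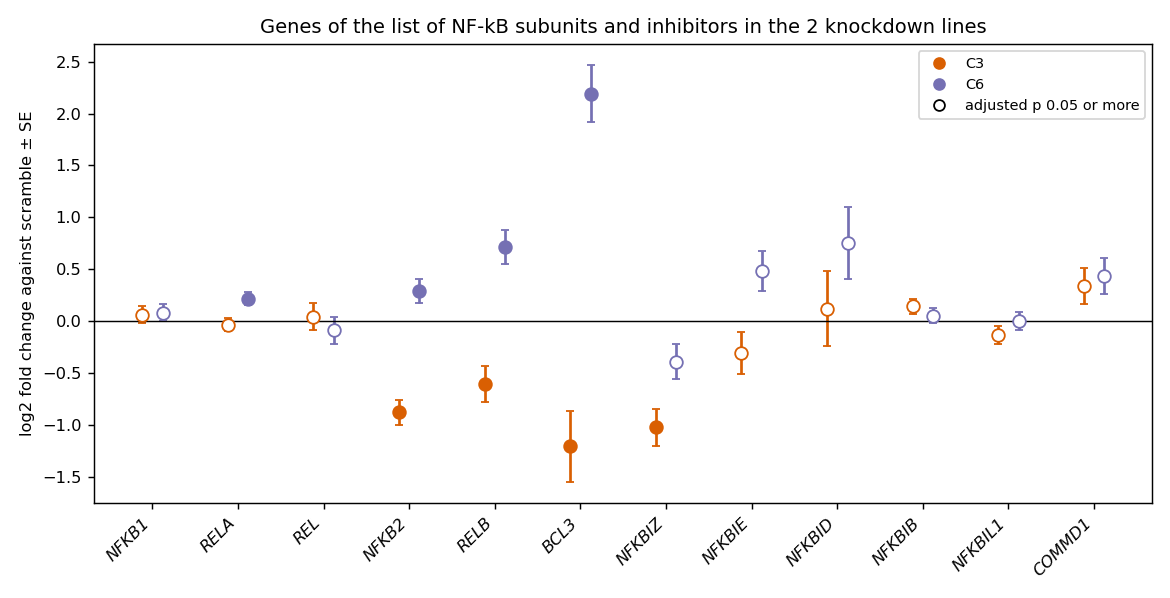
log2 fold change against scramble with its SE (y axis) for the 12 tested genes of the list of NF-kB subunits and inhibitors, in C3 and in C6, with filled points for an adjusted p under 0.05. NFKB2, RELB and BCL3 lie below 0 in C3 and above it in C6, while NFKB1 and REL lie near 0 in both.

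Upstream of the inhibitors, none of 32 genes of IKK and ubiquitin signalling, 0, was called in C3 with edgeR, while 11 rose (34.4%, against 23.8% of all genes) and 3 fell (9.38%, against 22.8%) in C6. In C3 3 were higher and 4 lower at an unadjusted p under 0.05, which 4779 of all 13299 genes reached in C3. DESeq2 called 1 higher in C3, against 2608 genes in all in either direction. RBCK1, a subunit of the linear ubiquitin chain assembly complex, rose in C6 (0.92 ± 0.06) and TRAF5, an adaptor of TNF receptors, fell (−0.91 ± 0.07). Of 17 tested receptors and ligands upstream of NF-kB, 9 rose (52.9%, against 23.8% of all genes) and 5 fell (29.4%, against 22.8%) in C6. None, 0, rose and 4 fell (23.5%, against 11.9%) in C3 with edgeR (1 higher at an unadjusted p under 0.05, and 0 with DESeq2). TLR4, the receptor of bacterial lipopolysaccharide, fell in C3 to 0.748 ± 0.0992 CPM and rose in C6 to 5.66 ± 0.272 CPM, against 3.25 ± 0.4 CPM in scramble (SD, n = 2), with the rise in C6 called in 11 of 13 alternatives. TLR3, a sensor of double-stranded RNA, fell in both lines (to 2.76 ± 0.577 CPM in C3 and 4.47 ± 0.226 CPM in C6, against 11.05 ± 1.07 CPM in scramble). IL18, an epithelial cytokine, fell to 0.641 ± 0.0517 CPM in C3 and 1.42 ± 0.786 CPM in C6, against 11.4 ± 1.16 CPM in scramble. TNF had 0 counts in all knockdown libraries and 2 and 4 counts in scramble, and IL1A and IL1B had 0 counts in every library; these 3 cytokines were named after their values were seen.

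Of 16 tested brakes on NF-kB, 8 rose (50%, against 23.8% of all genes) and 4 fell (25%, near the 22.8% of all genes) in C6. None, 0, rose and 2 fell (12.5%, near the 11.9% of all genes) in C3 with edgeR (2 higher at an unadjusted p under 0.05, and 0 with DESeq2). USP18, a protease that removes ISG15, fell in both lines (−0.65 ± 0.16 in C3 and −0.92 ± 0.17 in C6). Among 29 other tested NF-kB targets, 14 rose (48.3%, against 23.8% of all genes) and 3 fell (10.3%, against 22.8%) in C6. In C3 4 rose (13.8%, near the 12.4% of all genes) and 9 fell (31%, against 11.9%). SDC4, the syndecan with heparan sulfate chains, was at 63.5 ± 2.51 CPM in C3 and 189 ± 3.13 CPM in C6, against 65.6 ± 1.02 CPM in scramble. With the running median of its neighbours removed, SDC4 was called lower in C3 (−0.27, adjusted p = 0.00665 with edgeR). IL23A, a cytokine subunit, fell in both lines (−1.48 ± 0.09 in C3 and −0.65 ± 0.08 in C6), while IRF1, an interferon-regulated transcription factor, rose in both (0.29 ± 0.07 and 0.65 ± 0.07). CSF2, the granulocyte-macrophage growth factor, had 0 and 0 counts in C3 and 62 and 36 counts in C6, against 13 and 9 counts in scramble. Over all lists 145 genes other than the 10 members were tested, of which 14 rose and 22 fell in C3 (9.66% and 15.2%, against 12.4% and 11.9% of all genes) and 66 rose and 20 fell in C6 (45.5% and 13.8%, against 23.8% and 22.8% of all genes). Of these, 11 were lower in C3 and higher in C6 (7.59%, against 2.62% of all genes), and 2 the reverse (1.38%, against 2.31%). Their median log2 fold change was 0.00389 in C3 and 0.22 in C6, beside 0.00134 and −0.01 over all genes.

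AP-1 and C/EBP factors act beside NF-kB at chemokine promoters. Their list also holds EGR1, which is of neither family and is named for that reason. Of the 13 genes in this list 6 rose (46.2%, against 12.4% of all genes) and 2 fell (15.4%, against 11.9%) in C3. In C6 9 rose (69.2%, against 23.8%) and none, 0, fell with edgeR (also 0 at an unadjusted p under 0.05 and with DESeq2), and 5 were called higher in both lines. CEBPB, one of these 5, stood at 0.48 ± 0.07 in C3, and at 0.06 without a call (adjusted p = 0.614 with edgeR) once the running median of its neighbours was removed. JUN stood at 226 ± 9.88 CPM in C3 and 302 ± 5.87 CPM in C6, against 140.1 ± 4.92 CPM in scramble. Of 18 genes that govern the decay of cytokine mRNA, 4 rose (22.2%, against 12.4% of all genes) and none, 0, fell in C3 with edgeR (also 0 at an unadjusted p under 0.05 and with DESeq2). In C6 7 rose (38.9%, against 23.8%) and 2 fell (11.1%, against 22.8%). Among them ZFP36, which binds AU-rich elements of chemokine mRNA and speeds its decay, had 17.4 ± 0.791 CPM in C3 and 30.0 ± 0.901 CPM in C6, against 14.2 ± 0.812 CPM in scramble. It rose in C6 (1.07 ± 0.10, adjusted p = 6e-07 in the quasi-likelihood test of edgeR) and stood at 0.29 ± 0.10 in C3 (adjusted p = 0.0525). Of 5 tested genes in a list of other chemokines and chemokine receptors, 1 fell (20%, against 11.9%) in C3. None, 0, rose in C3 with edgeR (also 0 at an unadjusted p under 0.05 and with DESeq2). In C6 3 rose (60%, against 23.8%) and 2 fell (40%, against 22.8%). The chemokine genes CXCL16 (−0.82 ± 0.22 and −1.12 ± 0.23) and CX3CL1 (−1.22 ± 0.21 and −0.65 ± 0.20) fell in C3 and in C6. The receptors CXCR1, CXCR2 and CCR6 had at most 8 counts in any library. Of 7 tested genes in a list of ICAM genes and adhesion partners, 1 fell in C3 (14.3%, near the 11.9% of all genes). In C6 3 rose (42.9%, against 23.8%) and 2 fell (28.6%, against 22.8%). The list also holds MSN, EZR and RDX, which are neither ICAM genes nor integrins and are named for that reason. ICAM2, another ligand of leukocyte integrins, fell in C3 (−0.48 ± 0.10) and rose in C6 (0.69 ± 0.10).

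Across the 6 libraries the members fell into patterns that their log2 CPM values describe. CXCL8 and CCL20 were closest (Pearson r = 0.986 over 6 libraries), TNFAIP2 and ICAM1 also ran together (r = 0.916), and CXCL3 ran against TNFAIP2 (r = −0.985). Between CXCL3 and CXCL1 r was 0.0425, a value that 6 libraries and the 14 to 71 counts of CXCL1 leave imprecise. These values rest on 3 groups of 2 libraries and share their scaling. Among 10415 genes with a mean of at least 5 CPM, those most like CXCL8 were PHLDA1, GADD45A, MXRA7, MKRN1 and RAP1GDS1 (r from 0.998 to 0.999), and 58 genes exceeded 0.99. Among those most like NFKBIA were PRKAR1B, TSPAN15, EXOC3 and POLR2C (r from 0.995 to 0.998), and 26 exceeded 0.99.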

How the data were processed

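RNA was extracted with TRIzol, made into stranded mRNA libraries and sequenced as read pairs, per the labels' protocols. The authors deposited 1 table of counts per gene, with 6 columns matched to the libraries by title. The submitters' processing notes name Trimmomatic 0.38, HISAT2 2.1.0, StringTie 2.1.3b, DESeq2 and hg38. The sources used here do not say how reads were assigned to genes, with which annotation or with which strand setting.

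From the deposited counts, edgeR 4.0.16 in R 4.3.3 was used with filterByExpr, TMM scaling and robust quasi-likelihood fits of 3 groups (3 residual degrees of freedom). These fits moderated the spread of each gene by that of all genes, so tests and intervals rest on more degrees of freedom. Contrasts were C3 against scramble, C6 against scramble, the mean of both lines against scramble, and C6 against C3, with Benjamini-Hochberg adjustment over all 13299 genes tested and a threshold of 0.05. The SE of a log2 fold change was derived from the F statistic. Fits were tested on simulated data. Levels are CPM on TMM-scaled library sizes, and for correlations log2 CPM with a prior count of 2. Total counts were 31021000 and 28283524 in C3, 26889511 and 28425155 in C6, and 26392238 and 26077966 in scramble. Promoters came from RefSeq (GRCh38.p14) and transcript lengths from GENCODE v29. Alternatives were other scalings, other filters, DESeq2 1.42.0, a replicate block, removal of the positional shift, the knockdown libraries as 1 group, and each library left out.

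The 10 members and all lists were chosen with earlier results of these data known. The genes named from the lists were partners or paralogs of members, up to 4 per list with the lowest p for the mean of both lines, up to 4 with the largest change among those called in both lines, and the chromosome 4 neighbours. Genes named beyond this rule are marked in the report. A gene among those most like NFKBIA is not reported here.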

Additional observations from a re-analysis of the deposited data

Results flagged for a closer look

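For 8 of the 10 genes the effect of the knockdown differed between the lines, by edgeR's quasi-likelihood test of C6 against C3, which is the test of the difference itself because both effects share the scramble libraries. Of all genes tested 25.1% were higher and 24.1% lower in C6 than in C3, so a difference between the lines was common. TNFAIP3 was not called with DESeq2 (adjusted p = 0.101). The effect in C6 minus that in C3, on the log2 scale, was 1.97 for BIRC3, 1.77 for CXCL1, 1.18 for CCL20, 1.13 for CXCL8, 0.953 for TNFAIP2, 0.543 for TNFAIP3 and 0.506 for NFKBIA. For CXCL3 it was −0.519, the only one of the 8 with a lower value in C6. BIRC3 was the one member called in opposite directions in the lines. What differs between the lines beside the DKC1 level, such as the construct each carries, cannot be told apart from the knockdown in these libraries.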

How the results depend on the processing

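Over 13 alternatives, the calls of CXCL3, CXCL8, TNFAIP2 and BIRC3 in C3, in C6 and between the lines kept their direction and their side of the threshold. Of 530 values recomputed for the members, 495 kept both, 27 fell below the threshold, 3 passed it and 5 changed sign. Sign changes occurred only when a library was left out. CXCL1 in C3 then ran from −0.50 to 0.0723, CXCL2 from −0.095 to 0.76 in C3, from −0.0157 to 1.00 in C6 and from −0.42 to 0.67 for C6 against C3. The list genes CXCL6, NFKBIE and RELB are not members and lie outside these 530 values. In the mean comparison with a library left out, CXCL6 ran from −0.0918 to 0.48, NFKBIE from −0.0468 to 0.23 and RELB from −0.0828 to 0.20. With the knockdown libraries as 1 group, 0 members, 80 genes in all and 1 list gene passed, against 6, 4382 and 58 in the mean comparison; the spread then includes the difference between the lines. Leaving out a library gave 1946 (without scramble replicate 2) to 3267 called genes in C3, against 3230 with all libraries, and 1947 without C3 replicate 2. It gave 2444 (without scramble replicate 2) to 4041 in the mean comparison, 4584 to 6006 in C6 and 5155 to 6423 for C6 against C3, and 39 to 54 list genes. Members called were 4 to 5 in C3, 7 to 8 in C6, 4 to 6 in the mean and 6 to 8 between the lines. With a replicate block the members called were 5, 8, 6 and 8 in these 4 comparisons, as without it, and all genes called were 2935, 5878, 4014 and 6243. The labels do not say that a replicate number is shared between groups, so the numbers were not taken to pair libraries. Differences between replicates 1 and 2 correlated at 0.03 for C3 and C6, −0.05 for C3 and scramble and 0.06 for C6 and scramble. Counting error over all genes tested pulls such correlations towards 0, so they cannot settle whether libraries were paired. Precision is limited by 2 libraries per group and, for CXCL1, CXCL2 and ICAM1, by at most 71 counts per library.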
